A study of Rattus norvegicus with 8 samples.

Results

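The annexin family was followed across left atrial and left ventricular muscle of the normal rat heart. Its members were taken by gene symbol as Anxa1, Anxa2, Anxa3, Anxa4, Anxa5, Anxa6, Anxa7, Anxa8 and Anxa11, and a probe set was counted when its annotation named 1 of these genes and no other. This gave 15 probe sets for 9 genes, out of 31042 probe sets on the array and 14217 genes with a probe set of 1 symbol. The atrial samples were atrial appendages and the ventricular samples were ventricular free walls, all from 13 normal male Sprague-Dawley rats of 225 to 275 g. Each tissue was divided into 4 pools with 1 array per pool. The animals behind each pool are not given, so every p-value measures the spread between pools of several rats. That both tissues came from the left side rests on the methods of the study, since the labels do not name a side.

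Annexins are soluble proteins that bind acidic phospholipids, phosphatidylserine above all, when calcium rises. They share a conserved core that carries the calcium and membrane binding sites and differ in their amino-terminal tails, which bind partners such as S100 proteins. They are known for roles in membrane repair, vesicle fusion, clearance of dying cells, control of inflammation and surface fibrinolysis. In the heart Anxa2, Anxa5 and Anxa6 are among the best studied members.

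The arrays were closely alike within a tissue, with medians of 4.80 or 4.81 on the log2 scale and correlations between arrays of 0.990 to 0.996 among atrial and 0.996 among ventricular samples. The tissues carried the markers of their labels. All 4 atrial cardiomyocyte markers measured were higher and all 5 ventricular cardiomyocyte markers were lower in the atria. Atrial replicates 1 and 4 stood apart from the others of their group in the sum of the ventricular markers. It was 2496 and 4020 intensity units there, 385 and 423 in atrial replicates 2 and 3, and 18287 to 19588 in the ventricles. Intensity units are linear, that is, 2 raised to the log2 value. The gap lay in Myl2 (log2 10.48, 4.32, 6.82 and 11.30 in atrial replicates 1 to 4) and Myl3 (9.93, 8.06, 7.75 and 10.43). In Irx4, Irx3 and Myh7 atrial replicate 1 lay between replicates 2 and 3. Atrial replicate 4 was the highest atrial array in Irx4 (3.92) and Myh7 (6.68) but not in Irx3 (3.05). Differences of Anxa1, Anxa2, Anxa3, Anxa7, Anxa8 and Anxa11 are therefore also given with atrial replicates 1 and 4 left out. For Anxa4, Anxa5 and Anxa6 this setting is covered by the range over all alternatives.

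The promoters of the genes that carry the main results are shown first, since the data compare how much of each transcript was present. A promoter of 300 bases, from 250 bases before the annotated start to 50 after it, was held by the RefSeq table (rat build GRCr8) for 8 of the 9 members. Anxa1, Anxa2 and Anxa5 showed the largest positive differences and Anxa11 the only negative one that passed the test. Each sequence runs 5′ to 3′ on the strand of the gene, with the start of the gene at base 251. Capitals mark every match, on either strand, to TATAAA (the TATA box), CCAAT (the CCAAT box), GGGCGG (the GC box), TGACTCA (the AP-1 element), TGACGTCA (the cyclic AMP element) or CACGTG (the E-box). Matches of different motifs did not overlap in these windows.
Anxa1 (chr1:227303683-227303982, minus strand): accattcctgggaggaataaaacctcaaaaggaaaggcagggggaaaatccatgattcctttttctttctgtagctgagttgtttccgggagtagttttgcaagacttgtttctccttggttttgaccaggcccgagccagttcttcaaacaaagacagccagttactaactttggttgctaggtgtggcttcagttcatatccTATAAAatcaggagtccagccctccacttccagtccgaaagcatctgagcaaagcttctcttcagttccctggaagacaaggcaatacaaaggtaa
Anxa2 (chr8:78986002-78986301, plus strand): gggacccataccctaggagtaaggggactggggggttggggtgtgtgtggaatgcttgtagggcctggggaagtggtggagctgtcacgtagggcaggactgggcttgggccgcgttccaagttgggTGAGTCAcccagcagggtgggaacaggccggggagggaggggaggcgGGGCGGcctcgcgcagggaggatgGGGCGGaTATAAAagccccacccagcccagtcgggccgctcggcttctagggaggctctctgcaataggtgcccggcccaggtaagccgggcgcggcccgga
Anxa5 (chr2:121272647-121272946, minus strand): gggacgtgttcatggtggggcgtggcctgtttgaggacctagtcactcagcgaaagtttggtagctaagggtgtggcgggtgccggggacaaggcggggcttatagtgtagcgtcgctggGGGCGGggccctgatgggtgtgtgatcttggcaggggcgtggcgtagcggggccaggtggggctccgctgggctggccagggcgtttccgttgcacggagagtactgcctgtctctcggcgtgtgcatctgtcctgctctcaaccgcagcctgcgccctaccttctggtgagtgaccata
Anxa11 (chr16:1419484-1419783, plus strand): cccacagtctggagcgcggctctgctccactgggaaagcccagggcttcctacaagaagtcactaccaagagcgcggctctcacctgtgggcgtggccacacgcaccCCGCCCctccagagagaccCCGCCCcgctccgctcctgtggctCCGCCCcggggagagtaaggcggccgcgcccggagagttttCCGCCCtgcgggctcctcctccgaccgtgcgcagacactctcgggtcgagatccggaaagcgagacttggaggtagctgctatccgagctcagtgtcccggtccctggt

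The letters TATAAA stood at bases 205 to 210 of the Anxa1 window and at bases 206 to 211 of the Anxa2 window, and were found in 2 of 8 member promoters against 14.2% of 33469 rat promoters of the same length. GGGCGG, to which Sp1 proteins bind, was held by 6 of the 8 against 33.1% of all promoters. It occurred at 4 places in the Anxa11 window, each time on the opposite strand, at 2 places in the Anxa2 window, at 1 place in the Anxa5 window and nowhere in the Anxa1 window. TGACTCA was found in the Anxa2 window at bases 128 to 134 and in 4.63% of all promoters. CCAAT was found in 2 of 8 member promoters, those of Anxa4 and Anxa7, and in 37.5% of all. TGACGTCA and CACGTG were in none of the 8 member windows and in 1.83% and 6.42% of all promoters. The Anxa1 window held 45% G and C, below the median of 51.7% over all promoters, while the windows of Anxa5, Anxa2 and Anxa11 held 64.3%, 68% and 68%. Such matches describe the letters of the window only.

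Most annexin transcripts were more abundant in the atria. Anxa1, Anxa2, Anxa4, Anxa5, Anxa6 and Anxa7 were higher, Anxa11 was lower, and Anxa3 and Anxa8 did not pass the test. A gene was represented by its probe set of highest mean, and a call was an adjusted p under 0.05 from limma, a linear model with moderated variances, its p-values adjusted by Benjamini-Hochberg across the 31042 probe sets. Thus 6 of 9 annexin genes were higher, where 22.5% of all 14217 genes were, and 1 of 9 was lower, where again 22.5% of all genes were. By probe set, 7 of 15 were higher against 18.6% of all probe sets, 1 of 15 was lower against 20.1%, and 7 were not called. The median difference, atrium minus ventricle, was 0.32 over the 9 genes and -0.04 over all genes on the log2 scale. The values of the atrial and ventricular arrays did not overlap for 6 of the 9 genes, where 44.1% of all genes showed no overlap. At the thresholds of the study's methods, an adjusted p under 0.0001 and a fold of at least 1.8, only Anxa1 passed, 1 of 15 probe sets against 4.51% of all. In tissue samples such as these, fewer cells of a type and less RNA per cell cannot be told apart.

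**Figure D1:**
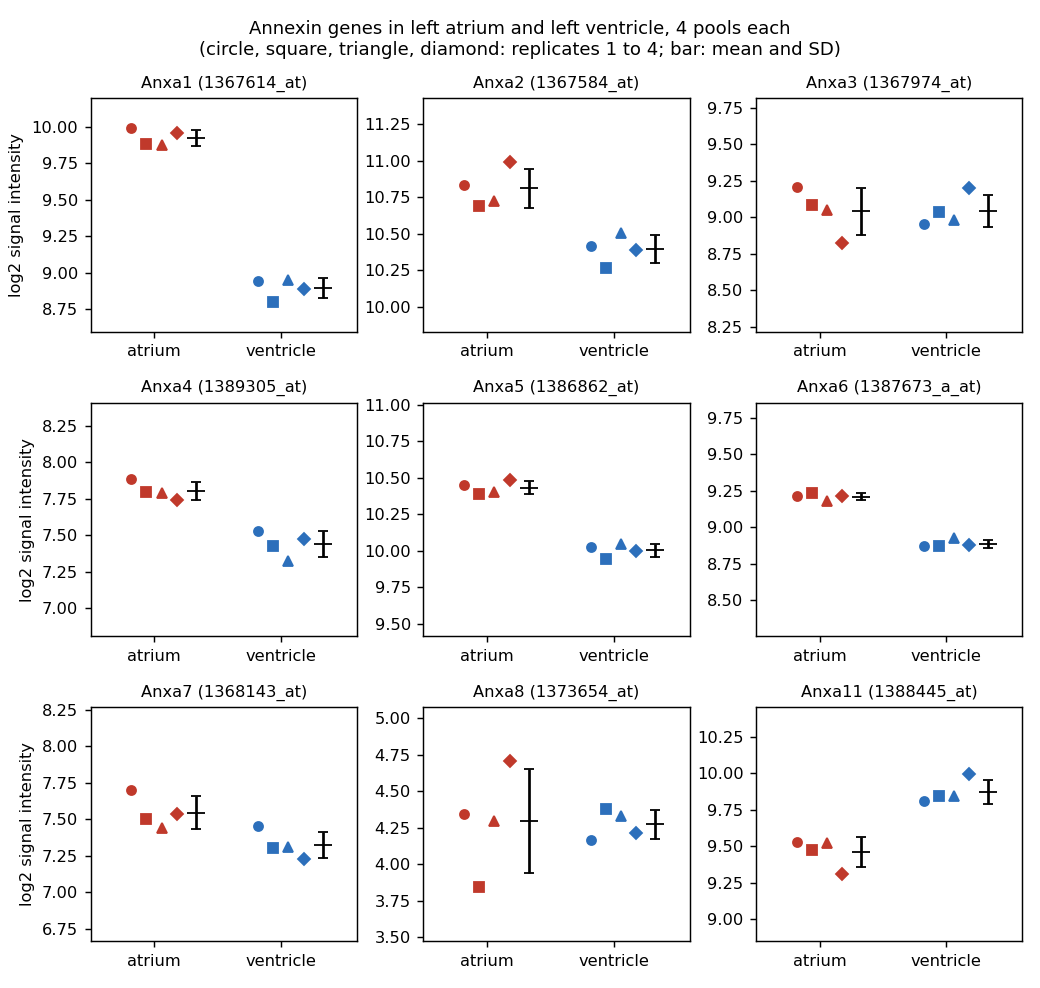
Log2 signal intensity (vertical axis) of the probe set of highest mean for each of the 9 annexin genes in the 4 atrial pools (red, left) and the 4 ventricular pools (blue, right), with mean and SD as black bars. Panels share the span of their axes but not its position, and the atrial points lie wholly above the ventricular points for Anxa1, Anxa2, Anxa4, Anxa5 and Anxa6 and wholly below them for Anxa11.

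Anxa1 is the glucocorticoid-inducible annexin that dampens inflammation through formyl peptide receptors. Its log2 signal was 9.99, 9.89, 9.87 and 9.95 in atrial replicates 1 to 4, against 8.95, 8.80, 8.95 and 8.89 in ventricular replicates 1 to 4. Every atrial array lay above every ventricular one, and the gap between the tissues was wider than the spread within either. The transcript was 2.04-fold higher in the atria (95% interval of the log2 difference 0.89 to 1.17, limma adjusted p = 5.0e-07). Without atrial replicates 1 and 4 the log2 difference was 0.98.

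Anxa2 pairs with S100a10 at the cell surface, where the complex binds plasminogen and tissue plasminogen activator. Its main probe set read 10.83, 10.69, 10.73 and 10.99 in the atria, against 10.42, 10.27, 10.51 and 10.39 in the ventricles. No ventricular array reached the lowest atrial one, and the highest value came from atrial replicate 4. The transcript was 1.33-fold higher in the atria (log2 difference 0.42 ± 0.08, SE, interval 0.24 to 0.59, limma adjusted p = 0.0022), and the difference was 0.32 without atrial replicates 1 and 4. The second Anxa2 probe set read low, at 4.29 to 4.33 in the atria and 4.34 to 4.60 in the ventricles. It ran the other way by -0.13 (interval -0.28 to 0.02, adjusted p = 0.16), which did not pass the test. With the mean of both probe sets in place of the brighter one, the Anxa2 difference was 0.14 and its call was lost (limma adjusted p = 0.117). RefSeq lists 8 Anxa2 pseudogenes in the rat, and whether their transcripts add to either probe set is not known here.

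Anxa5 binds phosphatidylserine on dying cells, for which it serves as a laboratory probe, and it is an anticoagulant protein. Its signal was 10.45, 10.39, 10.41 and 10.49 in the atria, against 10.02, 9.94, 10.05 and 10.00 in the ventricles. Replicates lay close together in both tissues (SD 0.04 in the atria and 0.05 in the ventricles) and the tissues were well apart. The fold was 1.35 (log2 difference 0.43, interval 0.30 to 0.56, limma adjusted p = 1.7e-04).

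Anxa6 is the annexin with a duplicated core and has been linked to calcium handling in cardiomyocytes. It read 9.21, 9.24, 9.18 and 9.21 in the atria, against 8.87, 8.87, 8.93 and 8.88 in the ventricles. Its spread was the narrowest of the 9 genes, with an SD of 0.02 in the atria and 0.03 in the ventricles. It was 1.25-fold higher in the atria (log2 difference 0.32, interval 0.21 to 0.44, limma adjusted p = 7.6e-04).

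Anxa4 is a membrane-aggregating annexin best known from epithelia, and both of its probe sets were higher in the atria. The brighter read 7.89, 7.80, 7.79 and 7.74 in the atria, against 7.53, 7.43, 7.33 and 7.48 in the ventricles. The other read 6.78, 6.49, 6.47 and 6.64 in the atria, against 6.20, 6.31, 6.26 and 6.22 in the ventricles. Neither showed overlap. Their log2 differences were 0.36 (interval 0.22 to 0.51, limma adjusted p = 0.0014) and 0.35 (interval 0.18 to 0.52, adjusted p = 0.0047). Anxa4 was thus the only member with more than 1 probe set for which all of them passed the test.

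Anxa7, or synexin, was found as a factor that fuses chromaffin granules and binds the calcium sensors sorcin and Pdcd6. Its brighter probe set read 7.70, 7.50, 7.44 and 7.53 in the atria, against 7.45, 7.30, 7.31 and 7.23 in the ventricles. The tissues touched, since ventricular replicate 1 lay above atrial replicate 3. The log2 difference was 0.22 (interval 0.05 to 0.39, limma adjusted p = 0.039). This was the weakest call: leaving out 1 array at a time gave 0.17 to 0.26, and the call was lost without atrial replicate 1 (0.17, adjusted p = 0.101), atrial replicate 2 (0.23, 0.0596), ventricular replicate 2 (0.21, 0.0833), ventricular replicate 3 (0.22, 0.0818) or ventricular replicate 4 (0.19, 0.1). The second probe set differed by 0.12 (interval -0.06 to 0.30, adjusted p = 0.28). RefSeq lists 4 Anxa7 pseudogenes.

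Anxa11 has a long amino-terminal tail that binds Pdcd6 and S100a6 and is known for tethering RNA granules to lysosomes. It was the member that ran the other way. Its signal was 9.53, 9.47, 9.52 and 9.31 in the atria, against 9.81, 9.84, 9.84 and 9.99 in the ventricles. The highest atrial array stayed below the lowest ventricular one, and the extremes were atrial replicate 4 and ventricular replicate 4. The transcript was 1.33-fold lower in the atria (log2 difference -0.41, interval -0.57 to -0.25, limma adjusted p = 0.0010), and the difference was -0.37 without atrial replicates 1 and 4.

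Anxa3, an annexin abundant in neutrophils, and Anxa8, a relative first found as an anticoagulant, did not pass the test. The main Anxa3 probe set read 9.21, 9.08, 9.05 and 8.82 in the atria, against 8.96, 9.03, 8.98 and 9.20 in the ventricles. Its means were 9.04 in both tissues, and the interval of the difference ran from -0.20 to 0.20. The spread in the atria came mainly from replicate 4, the lowest of the 8 arrays. The other Anxa3 probe sets differed by 0.02 (interval -0.21 to 0.24), -0.07 (-0.24 to 0.10) and 0.25 (-0.01 to 0.50). The last of these was called higher under 2 of the 15 alternatives given below. Among them was the omission of atrial replicate 4 (0.35, limma adjusted p = 0.00955). Anxa8 read low, at 4.35, 3.84, 4.29 and 4.71 in the atria and 4.17, 4.38, 4.33 and 4.21 in the ventricles. Its atrial SD of 0.36 was the largest among the 9 genes, and the interval of the difference ran from -0.30 to 0.35.

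**Figure D2:**
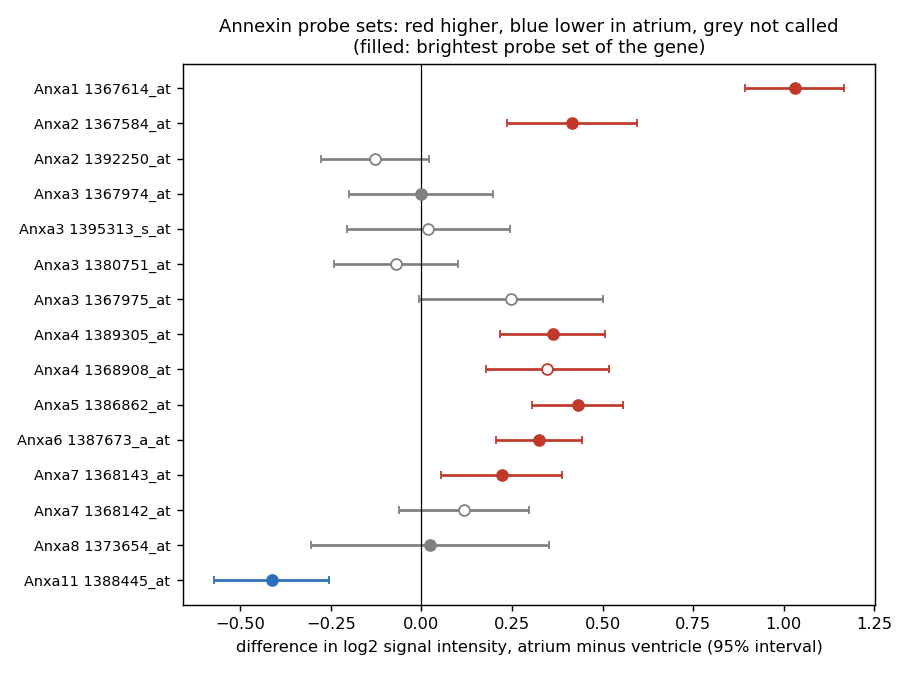
Difference in log2 signal intensity, atrium minus ventricle (horizontal axis), for the 15 annexin probe sets, with the 95% interval from limma; red was called higher, blue lower and grey not called in the atria, and filled points are the brightest probe set of each gene. Anxa1 lies alone at 1.03, most called probe sets lie between 0.22 and 0.43, and Anxa11 lies at -0.41.

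Ordered by their differences, the genes ran Anxa1, Anxa5, Anxa2, Anxa4, Anxa6, Anxa7, Anxa8, Anxa3 and Anxa11. Neighbours in this order were set side by side through the difference of their log2 values on each array. Since the order came from the same values, and 4 arrays a tissue leave little room for a test over 10 pairs, these are descriptions with no test. The Anxa1 difference exceeded that of Anxa5 by 0.60 ± 0.02 (SE), and the Anxa3 difference exceeded that of Anxa11 by 0.41 ± 0.04. In both pairs the atrial arrays did not overlap the ventricular ones. The neighbours in between differed by 0.02 to 0.20, and in each of those pairs the arrays of the tissues overlapped.

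Within each tissue the annexins also moved from pool to pool. Anxa1, Anxa2 and Anxa5 lay above the mean of their tissue on the same arrays, atrial replicates 1 and 4 and ventricular replicates 1 and 3, and below it on the others. The swing was widest for Anxa2, which deviated by 0.02, -0.12, -0.08 and 0.18 in atrial replicates 1 to 4 and by 0.02, -0.13, 0.11 and -0.01 in ventricular replicates 1 to 4. Anxa3 and Anxa11 followed another order, above the mean in atrial replicates 1, 2 and 3 and ventricular replicate 4. Anxa11 deviated by 0.07, 0.01, 0.07 and -0.15 in the atria and by -0.06, -0.03, -0.03 and 0.12 in the ventricles. Of 36 pairs of annexin genes, 4 had deviations of the same sign on all 8 arrays, namely the 3 pairs among Anxa1, Anxa2 and Anxa5, and Anxa3 with Anxa11. No pair was opposite on all 8. These signs are a description over 8 arrays that all genes share, noticed in the values themselves. Some rest on small deviations, such as -0.009, -0.009 and -0.003 for Anxa1, Anxa2 and Anxa5 in ventricular replicate 4. Anxa3 deviated by 0.007 in atrial replicate 3. The share of such pairs among all genes was not counted.

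**Figure D3:**
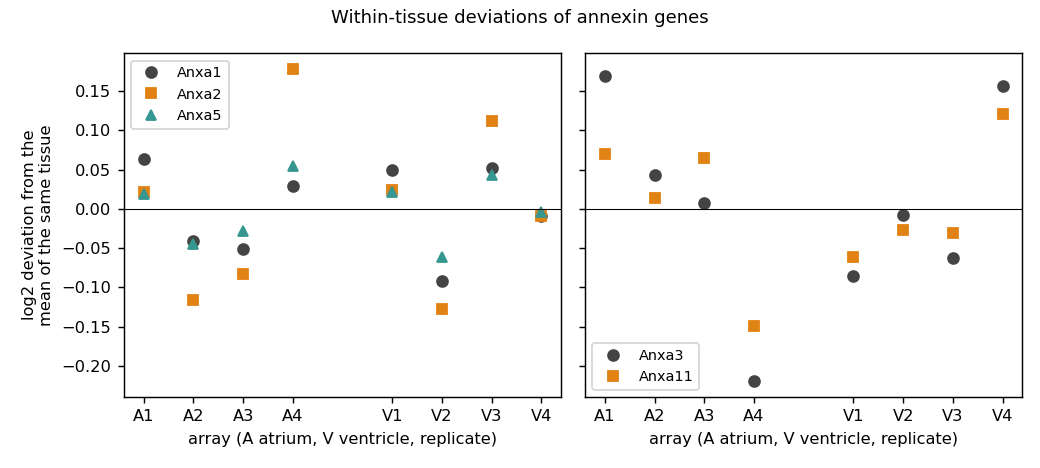
Deviation of the log2 signal from the mean of the same tissue (vertical axis) on the 4 atrial arrays (A1 to A4, left) and the 4 ventricular arrays (V1 to V4, right) for Anxa1, Anxa2 and Anxa5 (left panel) and for Anxa3 and Anxa11 (right panel). The first group lies above 0 on A1, A4, V1 and V3, the second on A1, A2, A3 and V4.

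Genes of other families resembled the leading annexins closely. Over the 8 arrays the 3 genes most like Anxa1 by Pearson correlation were LOC102554187 (r = 0.998, log2 difference 2.92), Serp1, a stress-associated protein of the endoplasmic reticulum (r = 0.998, difference 0.75), and Fcna, a ficolin of innate immunity (r = 0.997, difference 1.34). In all 1037 genes had an r over 0.95 with Anxa1. For Anxa11 they were Rgma, a repulsive guidance molecule (r = 0.992, difference -0.76), Klhl4 (r = 0.992, difference -0.56) and Sdr39u1 (r = 0.990, difference -0.56), among 234 genes over 0.95. The 8 arrays form 2 tissues, so any gene with a large and even difference between them scores high.

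Transcripts of the proteins that annexins bind were in part more abundant in the atria. Of 7 measured of 8 listed partners, 4 were higher, none was lower by limma, adjusted or at an unadjusted p under 0.05, and 3 were not called, where 22.5% of all genes were called in each direction. The median difference was 0.38 against -0.04 over all genes. S100a10, the Anxa2 partner, read 10.53, 10.38, 10.32 and 10.55 in the atria, against 9.87, 9.79, 9.97 and 9.89 in the ventricles. Its difference of 0.56 (limma adjusted p = 1.3e-04) exceeded that of Anxa2 itself, so Anxa2 minus S100a10 came to -0.15 ± 0.04 (SE), a description with no test. S100a6, which binds Anxa11 and Anxa2, differed by 1.44 (limma adjusted p = 5.9e-07), S100a4 by 0.79 (3.4e-04) and S100a1 by 0.38 (5.3e-04). S100a6 was thus higher and its partner Anxa11 lower in the atria.

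The Anxa1 partner S100a11 did not follow Anxa1. It read 9.88, 9.53, 9.53 and 10.13 in the atria, against 9.94, 9.92, 10.10 and 9.84 in the ventricles, so that atrial replicate 4 was the highest of all arrays and atrial replicates 2 and 3 the lowest. The difference was -0.18 (interval -0.46 to 0.10, limma adjusted p = 0.287). It was called lower without atrial replicate 4 (-0.30, adjusted p = 0.0316) and without atrial replicates 1 and 4 (-0.42, 0.00471). Anxa1 minus S100a11 came to 1.21 ± 0.13 (SE), again with no test. Sorcin (Sri), the Anxa7 partner, differed by 0.03 (interval -0.09 to 0.16), turning to -0.022 and -0.032 after cyclic loess and quantile scaling between arrays, and Pdcd6, the partner of Anxa7 and Anxa11, differed by -0.07 (interval -0.20 to 0.06).

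Of 15 measured genes of plasma membrane repair, 3 were higher, 3 were lower and 9 were not called, with a median of -0.02. These shares lay near the 22.5% of all genes called in each direction. Trim72, a striated muscle protein that gathers vesicles at membrane wounds, read 7.86, 7.91, 7.82 and 7.84 in the atria, against 10.15, 10.19, 9.97 and 10.14 in the ventricles. It was 4.76-fold lower in the atria (log2 difference -2.25, limma adjusted p = 3.5e-09), a difference larger than that of any annexin. Dysf, or dysferlin, which binds Anxa1 and Anxa2 at repair sites, was lower by the fit as well (-0.62, 9.0e-05). Its relative myoferlin (Myof) was higher, at 6.62, 6.88, 6.68 and 6.29 in the atria and 5.48, 5.50, 5.52 and 5.46 in the ventricles (difference 1.13, limma adjusted p = 1.5e-05). Cav3, the muscle caveolin, was also higher (0.52, 6.6e-05).

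Of the genes around Anxa1 signalling, 12 of 16 listed were measured, with 6 higher, none lower by limma either adjusted or at an unadjusted p under 0.05, and a median of 0.26. The share over all genes was 22.5% in each direction. Means were under 4 in both tissues for 2 of the 12. These were Alox5, not called, and Ptgs2, called higher at means of 3.49 in the atria and 2.51 in the ventricles. Fpr1, Fpr2, Fpr3 and Pla2g7 had no probe set of 1 symbol here. Pla2g2a, a secreted phospholipase A2, read 10.11, 10.12, 10.02 and 8.96 in the atria, against 8.11, 8.27, 7.73 and 8.24 in the ventricles. Atrial replicate 4 lay well below the others yet above every ventricle, and the difference was 1.71 (limma adjusted p = 2.3e-04). Ptgs1, cyclooxygenase 1, differed by 1.08 (1.4e-04). The glucocorticoid receptor gene Nr3c1, whose product induces Anxa1 in other cells, differed by 0.09 (interval -0.04 to 0.21) and was not called.

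In the plasminogen system, in which Anxa2 and S100a10 act as surface receptors, 5 of 9 measured genes were higher and 2 were lower, with a median of 0.29. Over all genes 22.5% were higher and 22.5% lower, a share that the lower genes here came close to. Means were under 4 in both tissues for 2 of the 9. These were Plaur, not called, and Serpinb2, called higher at means of 2.54 in the atria and 2.25 in the ventricles. Plg, which encodes plasminogen, differed by 0.59 (limma adjusted p = 0.0023) at a low signal of 4.37 in the atria and 3.78 in the ventricles. Lrp1, a clearance receptor, differed by 0.52 (9.7e-04). Plat, tissue plasminogen activator, was lower by the fit (-0.42, 0.0014), as was its inhibitor Serpine2 (-0.28, 0.048). The Serpine2 call was lost without atrial replicate 1 (-0.25, 0.109), atrial replicate 3 (-0.19, 0.118), ventricular replicate 1 (-0.31, 0.0587), ventricular replicate 2 (-0.28, 0.091), ventricular replicate 3 (-0.27, 0.096) or ventricular replicate 4 (-0.25, 0.107).

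Among other proteins that bind calcium and phospholipid, 14 were measured of 18 listed. Of these 2 were higher, 6 were lower and 6 were not called, with a median of -0.14, where 22.5% of all genes were called in each direction. Means were under 4 in both tissues for 4 of the 14. The copine Cpne8 was higher (0.81, limma adjusted p = 5.5e-05) and the Ras regulator Rasa4 lower (-0.88, 2.7e-05). Esyt3 was higher (0.54, 3.8e-04) and Cpne9 lower (-0.38, 0.0069), both with means under 4 in each tissue, where signals are close to the floor. Genes that expose or recognise phosphatidylserine, the ligand of Anxa5, were 4 higher, 3 lower and 8 not called of 15 measured, with a median of -0.01, near the 22.5% of all genes called in each direction. Plscr1, a scramblase, read 6.29, 6.30, 6.30 and 6.31 in the atria, against 4.71, 4.52, 4.85 and 5.10 in the ventricles (difference 1.51, limma adjusted p = 1.6e-06). Tmem30a, a flippase subunit, was higher (0.57, 1.4e-05), while Plscr3 (-0.76, 1.9e-05) and the flippase Atp11a (-0.45, 2.8e-04) were lower.

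**Figure D4:**
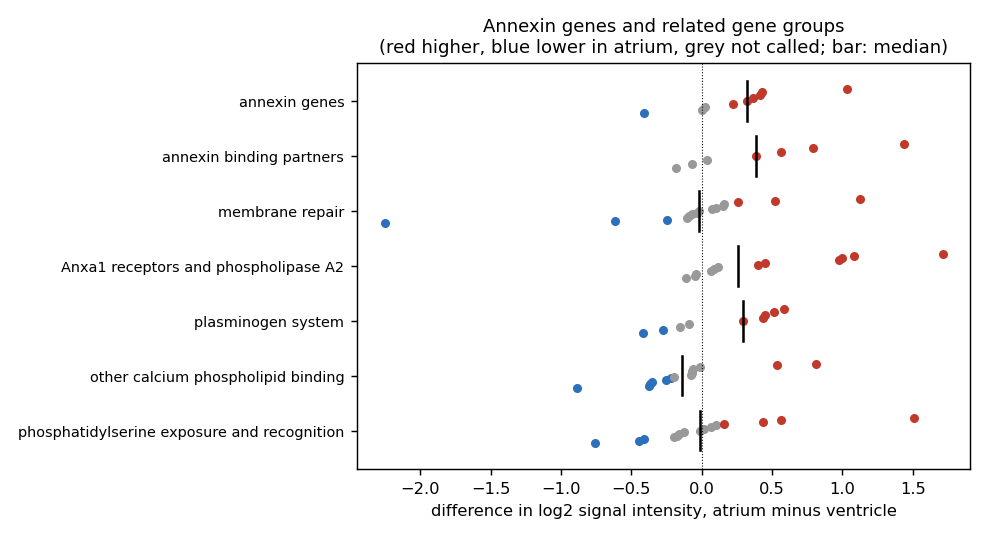
Difference in log2 signal intensity, atrium minus ventricle (horizontal axis), for each measured gene of the annexin family and of 6 related groups; red was called higher, blue lower and grey not called in the atria, and the bar is the median of the group. The medians of the annexin genes and of their binding partners lie at 0.32 and 0.38, that of membrane repair near 0.

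A last member of the family outside the set, Anxa9, was near the floor at means of 2.72 in the atria and 2.95 in the ventricles. Its difference of -0.22 (limma adjusted p = 0.044) lost its call without atrial replicate 1 (-0.20, 0.102), atrial replicate 3 (-0.20, 0.112), atrial replicate 4 (-0.23, 0.0503), ventricular replicate 2 (-0.17, 0.118), ventricular replicate 3 (-0.24, 0.0658) or ventricular replicate 4 (-0.21, 0.0904). It was also lost under cyclic loess (-0.15, 0.18) and quantile normalization (-0.16, 0.155) and without atrial replicates 1 and 4 together (-0.20, 0.135). Its second probe set differed by -0.11 (adjusted p = 0.19). Anxa10 and Anxa13 had no probe set of 1 symbol here.

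Markers of several other cell types differed between the tissues too, where 22.5% of all genes were called in each direction. Fibroblast markers were higher for 8 of 10 genes, summing to 14236 to 16482 intensity units in the atria and 11248 to 12948 in the ventricles. Mesothelial and epicardial markers were higher for 7 of 8 and lower for 1, at 1122 to 2138 in the atria and 192 to 215 in the ventricles. Endothelial markers were lower for 7 of 9 and higher for 1, at 2937 to 3095 in the atria and 4089 to 4474 in the ventricles. Every marker of smooth muscle (5 of 5) and of pericytes (6 of 6) was lower. The smooth muscle sum was 725 to 762 in the atria and 1097 to 1235 in the ventricles, and the pericyte sum 1020 to 1162 in the atria and 1979 to 2119 in the ventricles. The part of these cells in the annexin differences was not tested.

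Macrophage markers were higher for 5 of 9, where 22.5% of all genes were called in each direction. Their sums overlapped, at 1391 to 1844 in the atria and 1512 to 1855 in the ventricles. Lyz2, the brightest of the 9, weighed most in these sums and ran the other way (-0.29, not called). Adipocyte markers were higher for 4 of 6. Their sum was 5184 in atrial replicate 4, 1583 to 2641 in the other atrial replicates and 2182 to 2420 in the ventricles. Fabp4, the brightest of the 6, weighed most in this sum and was not called (-0.19). The 4 called genes, Adipoq, Pck1, Plin1 and Cfd, were higher on every atrial array than on any ventricular one, where 44.1% of all genes showed no overlap. Neutrophil markers, which bear on Anxa3, were near the floor at 45 to 57 in the atria and 62 to 74 in the ventricles, 2 of 4 being lower, with S100a8, Csf3r and Camp under 4 in both tissues. Lymphocyte markers were lower for 3 of 4, at 39 to 44 in the atria and 46 to 56 in the ventricles, with Cd3e, Cd3d and Ms4a1 under 4. Mast cell markers were higher for 1 of 6, near the share over all genes (119 to 175 in the atria, 126 to 147 in the ventricles). Markers of Schwann cells and neurons were higher for 2 and lower for 1 of 5 (129 to 193 in the atria, 111 to 126 in the ventricles). General cardiomyocyte markers were higher for 1 and lower for 1 of 5, also near the share over all genes. Their sums overlapped, at 29731 to 32204 in the atria and 31259 to 32291 in the ventricles. The part of these cells was not tested either.

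**Figure D5:**
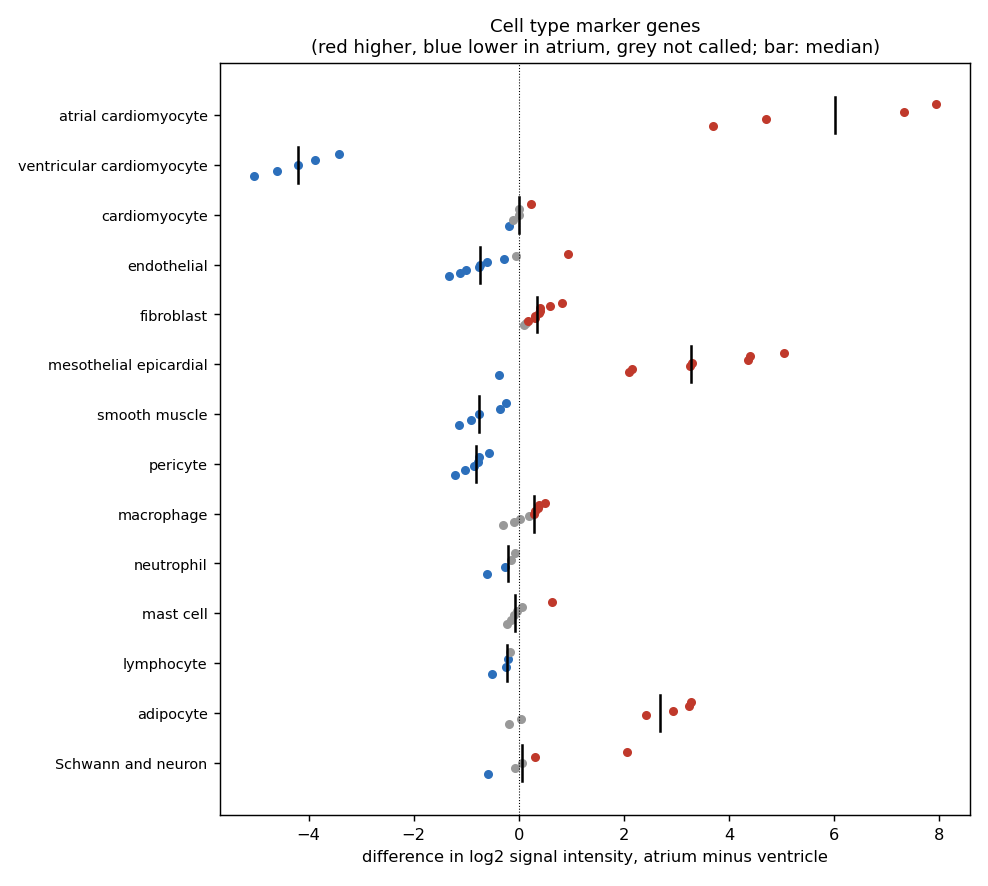
Difference in log2 signal intensity, atrium minus ventricle (horizontal axis), for each measured marker gene of 14 cell types; red was called higher, blue lower and grey not called in the atria, and the bar is the median of the list. Fibroblast and mesothelial markers lie mostly right of 0, endothelial, smooth muscle and pericyte markers left of it.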

How the data were processed

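Total RNA of 4 atrial and 4 ventricular pools, 10 μg per array, was labelled with biotin and hybridized to Affymetrix rat genome arrays. The deposited values are log2 signal intensities, which the authors made by RMA (background adjustment, quantile normalization and summary per probe set). The RMA version is not given in the sources used here. The values ran from 1.90 to 13.77 and 0 AFFX control probe sets were among them. The arrays carry no read depth, so their number limits the precision. Raw scans and detection calls were not analysed here.

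No further scaling was applied. Each difference is the atrial minus the ventricular mean of log2 values, from limma 3.58.1 in R 4.3.3 (lmFit and eBayes), with Benjamini-Hochberg adjustment over 31042 probe sets, called at an adjusted p under 0.05. The study used SAM. Here its thresholds were applied to the limma result instead. Over all probe sets the median SD between atrial pools was 0.117 and that between ventricular pools 0.0986.

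By the platform annotation 20826 probe sets carry 1 symbol, 436 several and 9780 none. For 20758 the symbol was taken from RefSeq through the gene ID, whether or not it changed. For each of 14217 genes the probe set of highest mean stood for the gene. The 7 gene groups and 14 cell type lists hold 184 genes, of which 158 were measured. The members and all lists were chosen with earlier results of these data known. Named genes are all annexin probe sets, the 2 called genes of largest difference in each direction of each group, and the 3 genes most correlated with Anxa1 and with Anxa11. S100a10, S100a11, S100a1, Sri, Pdcd6 and Nr3c1 were named for their role and the pairs of neighbours by their order, both after the values were seen. A mean under 4 was taken as dim. Plots were made in Python 3.11.15 (matplotlib 3.10.9).

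Alternatives were a trended and robust prior variance, arrays centred on their medians, quantile or cyclic loess scaling of the arrays, omission of the 40% of probe sets with the lowest mean, a block by replicate number, each array and atrial replicates 1 and 4 left out, the study thresholds, a test against a fold of 1.2, and other probe sets of a gene.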

Additional observations from a re-analysis of the deposited data

Results flagged for a closer look

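In 2 of 82 groups of 4 arrays, for the annexins and the genes named beside them, 1 array lay far from the other 3 by Dixon's criterion, which chance alone meets in about 1 in 20 groups. Pla2g2a read 8.96 in atrial replicate 4, against 10.02 to 10.12 in the other atrial replicates. Ptgs1 read 4.30 in ventricular replicate 2, against 4.78 to 4.86 in the other ventricular replicates. None of the annexin probe sets showed such an array.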

How the results depend on the processing

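Anxa1, Anxa2, Anxa4, Anxa5, Anxa6 and Anxa11 kept their direction and their call under all 15 alternatives run for the brightest probe set of each, with differences of 0.98 to 1.05, 0.32 to 0.45, 0.30 to 0.39, 0.39 to 0.45, 0.26 to 0.34 and -0.46 to -0.36. The Anxa7 call was lost under cyclic loess (0.16, limma adjusted p = 0.126), quantile normalization (0.16, 0.137) and without atrial replicates 1 and 4 (0.15, 0.181), and ranged from 0.17 to 0.26 with 1 array left out. The cause was not tested. Anxa3 and Anxa8, neither called, changed sign: the main Anxa3 probe set gave 0.025 without atrial replicates 1 and 4 and -0.057 to 0.073 with 1 array left out, and Anxa8 gave -0.21 and -0.11 to 0.18. Another Anxa3 probe set gave -0.031 under quantile normalization, -0.015 without atrial replicates 1 and 4, and -0.070 to 0.084 with 1 array left out. Sri gave -0.022 under cyclic loess and -0.032 under quantile normalization. At the study thresholds 1 annexin gene and 1 probe set were higher and 0 were lower, and against a fold of 1.2 itself 1 probe set was higher and 0 lower. With 1 array left out, 6 to 8 probe sets and 5 to 6 genes were higher and 1 of each was lower. With the second brightest probe set of a gene 4 genes were higher, and with the mean of its probe sets 5. Leaving out the 40% of probe sets with the lowest mean cut the plasminogen group to 3 higher and the other calcium-binding group to 1 higher. It left 5 higher in the group around Anxa1 signalling. Scaling moved the median of all probe sets from -0.05 to no more than -0.004.

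Whether same-numbered pools share animals is not given, and correlations over 4 pools a tissue cannot settle it. Same-numbered pools correlated at -0.188 to 0.155 after removal of tissue means. Of the 4 atrial pools, 2 correlated best with the ventricular pool of their number. With the replicate number as a block, 7 annexin probe sets and 6 genes were higher and 1 of each lower, as without it, and Anxa7 had an adjusted p of 0.0368.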
